A study of Homo sapiens with 8 samples.

Results

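The 54 histone genes of the HIST clusters were taken from a table of 26716 genes as every gene listed as mRNA, 21842 in all, whose symbol begins with HIST1H, HIST2H, HIST3H or HIST4H. One pseudogene, HIST2H2BA, has such a symbol and was left out. HIST1 holds 44 of the genes, HIST2 holds 8, and HIST3 and HIST4 hold 1 each. By histone class there were 5 H1, 15 H2A, 14 H2B, 9 H3 and 11 H4 genes. Expression was measured in HepG2, a human hepatocellular carcinoma cell line, in 4 groups of 2 libraries, each made 72 h after transfection. All 4 groups received a mimic at 1 nM and an siRNA at 30 nM. The siIPO8-miR-552-3p group had the miR-552-3p mimic, a synthetic form of that microRNA, with an siRNA against importin8 (IPO8). The siIPO8-NC group had the control mimic with the importin8 siRNA. The miR-552-3p group had the miR-552-3p mimic with the control siRNA, and the NC group had both controls. Importin8 is a nuclear transport receptor that is also known to bind Argonaute proteins.

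Most of these genes encode the replication-dependent histones, which package newly made DNA and are transcribed mainly in S phase. Their mRNAs normally end in a stem-loop that is bound by SLBP, and carry no poly(A) tail. Several of the genes also give a polyadenylated form, which is known from cells that have left the cycle or differentiated. The libraries were made from RNA bound to oligo(dT), so they hold the polyadenylated forms and whatever stem-loop RNA was carried along. A change in transcript amount and a change in the polyadenylated share of it cannot be told apart in these data, nor can fewer cells that express a gene and less RNA per cell.

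The stem-loop is shown because it is the element that sets the usual end of a histone mRNA. Of the 54 genes, 31 had at least 20 annotated bases after the stop codon in GENCODE v29 (GRCh38), and 27 of these held the 16-base stem-loop there. A poly(A) signal, AATAAA or ATTAAA, followed the stem-loop in 15 of the 27. The sequences below are from the GENCODE transcripts, in the sense of the mRNA and written as DNA, with the 6-base arms of the stem in capitals and the 4-base loop in lower case.
HIST2H2BE: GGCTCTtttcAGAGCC
HIST1H2AC: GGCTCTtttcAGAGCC
HIST1H3H: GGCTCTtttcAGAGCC
HIST1H2BD: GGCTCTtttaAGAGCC
HIST1H3E: GGCTCTtctcAGAGCC
HIST1H4J: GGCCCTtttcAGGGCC
HIST2H2BE, HIST1H2AC, HIST1H3H, HIST1H2BD and HIST1H3E had a poly(A) signal further down, and HIST1H4J had none annotated. HIST2H2BE, HIST1H2AC and HIST1H3H have the same 16 bases.

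Promoters of 50 of the 54 genes were found in RefSeq (GRCh38.p14) by gene identifier. The 250 bases before the start are printed for an H2B, an H3 and an H1 gene whose levels took 3 different courses over the groups. Capitals mark ATTTGCAT (the octamer), CCAAT and TATAAA on either strand, so that ATTGG and TTTATA are their reverse forms.
HIST2H2BE promoter, chr1:149886683-149886932, minus strand: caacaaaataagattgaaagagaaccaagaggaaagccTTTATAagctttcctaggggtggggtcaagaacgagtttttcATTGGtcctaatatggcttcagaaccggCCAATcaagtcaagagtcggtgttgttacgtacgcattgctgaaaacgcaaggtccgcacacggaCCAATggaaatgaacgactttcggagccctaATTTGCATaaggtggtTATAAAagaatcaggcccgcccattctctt
HIST1H3H promoter, chr6:27809801-27810050, plus strand: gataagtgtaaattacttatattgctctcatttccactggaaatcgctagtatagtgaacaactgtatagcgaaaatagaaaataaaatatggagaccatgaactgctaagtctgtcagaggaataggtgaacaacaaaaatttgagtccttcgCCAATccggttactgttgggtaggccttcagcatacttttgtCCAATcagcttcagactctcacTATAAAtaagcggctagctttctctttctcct
HIST1H1C promoter, chr6:26056471-26056720, minus strand: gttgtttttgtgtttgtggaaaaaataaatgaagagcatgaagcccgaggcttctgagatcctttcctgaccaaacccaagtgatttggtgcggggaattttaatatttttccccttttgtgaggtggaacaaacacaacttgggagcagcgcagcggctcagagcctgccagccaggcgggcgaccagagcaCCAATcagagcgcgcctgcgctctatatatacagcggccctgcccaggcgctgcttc
The HIST2H2BE window held the octamer, CCAAT and TATAAA, the HIST1H3H window held CCAAT and TATAAA, and the HIST1H1C window held CCAAT alone. The octamer, the letters to which OCT1 is known to bind in H2B promoters, was found in 11 of 14 H2B, 9 of 14 H2A, 1 of 8 H3, 0 of 5 H1 and 0 of 9 H4 promoters. It was in 1.66% of 27305 promoters of this length. CCAAT was in 42 of the 50 histone promoters, against 33.0% of all, and TATAAA in 32 of the 50, against 11.1%. TTTGGCGC, letters of an E2F site, was in 0 of the 50 and in 0.553% of all. No motif searched is contained in another, and a match is a description of these letters only.

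The mimic has the mature sequence below, taken from RefSeq (GRCh38.p14), with its seed, bases 2 to 8, in capitals.
hsa-miR-552-3p: aACAGGUGacugguuagacaa
Its perfect seed match, CACCTGT, was in a GENCODE transcript of 3 of the 30 histone genes with at least 10 counts in a library: HIST1H2BN, HIST2H2AA3 and HIST2H2AA4. Among transcripts of 300 to 600 bases, 5.41% of histone transcripts and 5.58% of all 14505 protein-coding ones held it.

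The table gave expected counts that summed to between 21608563 and 22102373 per library. IPO8, the target of the siRNA, had 158.73 and 175.18 expected counts in siIPO8-miR-552-3p, with 253 and 255.41 in siIPO8-NC, against 554.88 and 522.58 in miR-552-3p and 769.61 and 759.78 in NC. All 8 hepatocyte and hepatoma markers were detected, with a summed level of 44102 to 67221 CPM (expected counts brought to a common depth on TMM-scaled library sizes). The 6 fibroblast markers summed to 9.38 and 10.4 CPM in siIPO8-miR-552-3p, 9.96 and 9.17 in siIPO8-NC, against 9.25 and 8.58 in miR-552-3p, and 19.8 and 12.9 in NC. The 6 measured blood and endothelial markers summed to 23.9 and 24.7 CPM in siIPO8-miR-552-3p, 22.4 and 19.9 in siIPO8-NC, against 43.0 and 42.4 in miR-552-3p, and 76.6 and 81.3 in NC. That sum is mostly PECAM1, and its groups stand in the order of the histone sum. Other genes of the list differed from it in course. By group mean, VWF was also highest in NC, at 7.62 CPM, but lowest in miR-552-3p, at 1.67. CDH5 went the other way, with 2.87 CPM in siIPO8-NC against 0.0669 in NC. CD79A had 12.8 CPM in miR-552-3p against 0.289 in NC. Of the 5 tested markers of this list, 1 was called higher and 2 lower in siIPO8-NC than in NC. In the fibroblast list, PDGFRB was highest in NC, at 18.2 and 12.4 CPM, and lowest in miR-552-3p, at 4.49 and 5.51. COL1A1 was lowest in NC, at 0.270 and 0.351 CPM, and highest in miR-552-3p, at 3.85 and 2.97. Of the 3 tested fibroblast markers, 1 was called higher and 1 lower in siIPO8-NC than in NC. Of the other defining markers, DCN and LUM were at 0 in 7 of 8 libraries each, and PTPRC reached at most 0.458 CPM. Any part of fibroblasts, blood or endothelial cells in the histone values was not tested.

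The summed level of the 54 genes was low in every importin8 siRNA library and highest in NC. It was 46.8 and 44.9 CPM in siIPO8-miR-552-3p, 43.7 and 44.3 in siIPO8-NC, against 118.6 and 115.4 in miR-552-3p, and 156.4 and 157.9 in NC. The control siRNA groups did not overlap each other or the importin8 siRNA groups. siIPO8-miR-552-3p lay just above siIPO8-NC on this scale, but the groups overlapped with CPM taken on library totals instead, where siIPO8-miR-552-3p had 44.9 and 43.7 CPM and siIPO8-NC had 44.1 and 45.3. Group means were 45.9 ± 1.34 CPM in siIPO8-miR-552-3p, 44.0 ± 0.441 in siIPO8-NC, 117 ± 2.28 in miR-552-3p and 157 ± 1.10 in NC (SD, n = 2 each). As a ratio of means, siIPO8-NC had 0.280 of the NC sum and siIPO8-miR-552-3p had 0.392 of the miR-552-3p sum. The mimic group had 0.745 of the NC sum with control siRNA, and 1.04 of the siIPO8-NC sum with importin8 siRNA (0.992 on library totals, an alternative added after seeing the data). Without HIST2H2BE, a choice made after seeing the data, siIPO8-NC had 0.298 of the NC sum, siIPO8-miR-552-3p had 0.438 of the miR-552-3p sum and miR-552-3p had 0.709 of the NC sum.

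The classes did not share one course. H3 genes summed to 3.57 ± 0.677 CPM in siIPO8-miR-552-3p, 5.18 ± 0.214 in siIPO8-NC, 6.31 ± 0.772 in miR-552-3p and 35.8 ± 0.680 in NC (SD, n = 2 each). H1 genes were highest in miR-552-3p, with 6.67 ± 0.744 CPM in siIPO8-miR-552-3p, 4.76 ± 0.118 in siIPO8-NC, 25.4 ± 2.16 in miR-552-3p and 8.27 ± 0.395 in NC. H2B genes summed to 20.7 ± 0.736 CPM in siIPO8-miR-552-3p, 21.4 ± 0.628 in siIPO8-NC, 50.7 ± 1.82 in miR-552-3p and 71.3 ± 0.217 in NC. H2A genes stood at 12.8 ± 1.92 CPM in siIPO8-miR-552-3p, 11.2 ± 0.134 in siIPO8-NC, 32.9 ± 1.02 in miR-552-3p and 40.9 ± 0.881 in NC. H4 genes were barely seen, at 2.14 ± 0.0878 CPM in siIPO8-miR-552-3p, 1.49 ± 0.279 in siIPO8-NC, 1.68 ± 0.149 in miR-552-3p and 0.853 ± 0.152 in NC. H4 was the 1 class whose sum was lowest in NC. The near-identical genes HIST1H4J and HIST1H4K were at 0 there, and their sum had group means of 0.369 to 1.24 CPM elsewhere. Without this pair, siIPO8-NC and not NC would be the lowest group for H4.

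**Figure D1:**
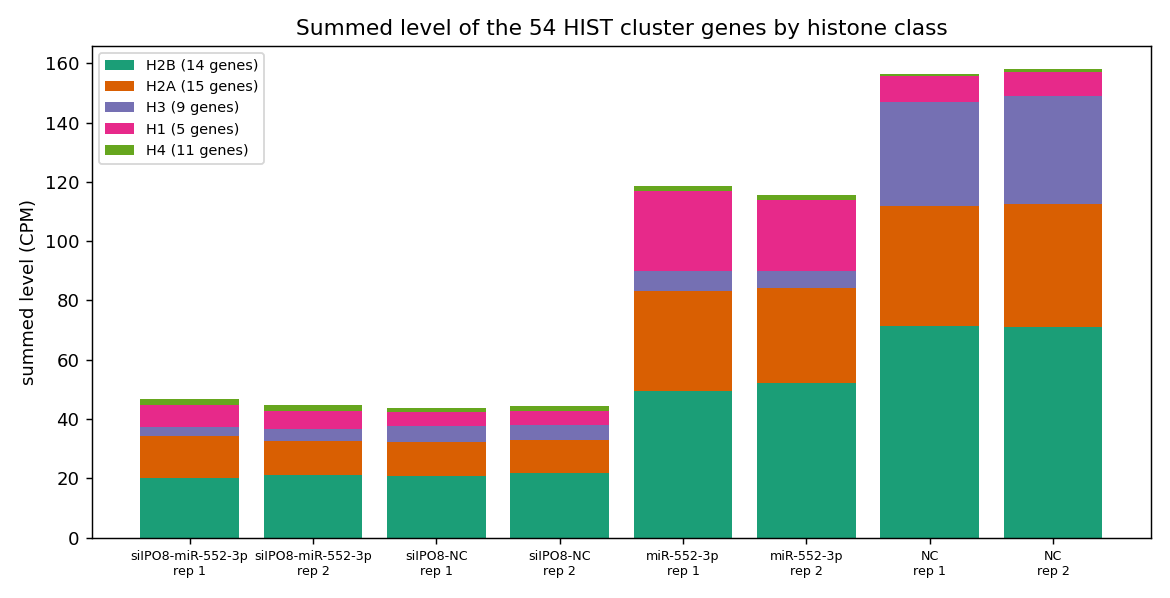
Summed level of the 54 histone genes in each library in CPM, stacked by histone class, with the importin8 siRNA groups at left and NC at right. The 4 importin8 siRNA libraries reach 43.7 to 46.8 CPM and the NC libraries 156.4 and 157.9 CPM. The H3 part is large in NC alone, where most of it is HIST1H3H.

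Few genes carried these sums. Of the 54 genes, 30 reached 10 expected counts in at least 1 library, 24 stayed under 10 in every library, and none was at 0 in all 8. The low-count filter of the fit kept 24 genes, and the other 30 were not tested. The genes not tested summed to 1.90 ± 0.802 CPM in siIPO8-miR-552-3p, 1.83 ± 0.270 in siIPO8-NC, 1.88 ± 0.420 in miR-552-3p and 2.67 ± 0.995 in NC (SD, n = 2 each). The genes with a mean of at least 50 counts were 7, HIST1H2BK, HIST1H2AC, HIST1H1C, HIST1H3H, HIST1H2BD, HIST2H2BE and HIST1H2AI. They held 71.8 to 74.2% of the summed CPM in importin8 siRNA libraries and 80.8 to 86.1% in control siRNA libraries. Per length, over all 8 libraries, the mean level was 27.1 FPKM (fragments per kilobase of transcript and depth) for HIST1H2BK and 15.0 FPKM for HIST1H1C. It was 4.23 FPKM for HIST1H3H, 4.03 for HIST1H2BD, 3.91 for HIST1H2AC, 2.495 for HIST2H2BE and 0.9975 for HIST1H2AI. Outside these 7 genes, HIST2H2AA4 had 4.53 FPKM and HIST2H2AA3 had 4.185, above several of them.

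A gene was called when the Benjamini-Hochberg adjusted p of edgeR's quasi-likelihood test, over all 17715 genes tested, was under 0.05. With control mimic, 12 of the 24 tested histone genes were lower in siIPO8-NC than in NC and 1 was higher, while 21.6% of all genes tested were called lower and 25.4% higher. The median log2 fold change of the 24 was -1.66, against 0.00 for all genes tested. With the mimic in both groups, 9 of the 24 were lower in siIPO8-miR-552-3p than in miR-552-3p and 0 were higher, beside 16.2% of all genes called lower and 17.3% higher. Their median was -0.83, against -0.01 for all genes. At an unadjusted p under 0.05, 10 of the 24 differed in that comparison. The mimic with control siRNA had 8 genes lower and 2 higher in miR-552-3p than in NC, in a comparison that called 29.5% of all genes lower and 28.9% higher. The lower share was near that background and the higher share was below it. With importin8 siRNA the mimic left 2 genes lower and 1 higher in siIPO8-miR-552-3p than in siIPO8-NC, beside 16.7% of all genes lower and 15% higher. The median of the 24 was -0.67 with control siRNA, against -0.01 for all genes, and 0.28 with importin8 siRNA, against 0.00. The low-count filter kept HIST1H2BF and HIST1H3B only through NC, where alone they reached 10 counts. Their direction against NC was thus tied to the filter. HIST1H2BF is among the 12 genes lower in siIPO8-NC, and HIST1H3B among the 8 lower in miR-552-3p. Both are in the medians. The comparisons share groups and are not independent of each other.

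**Figure D2:**
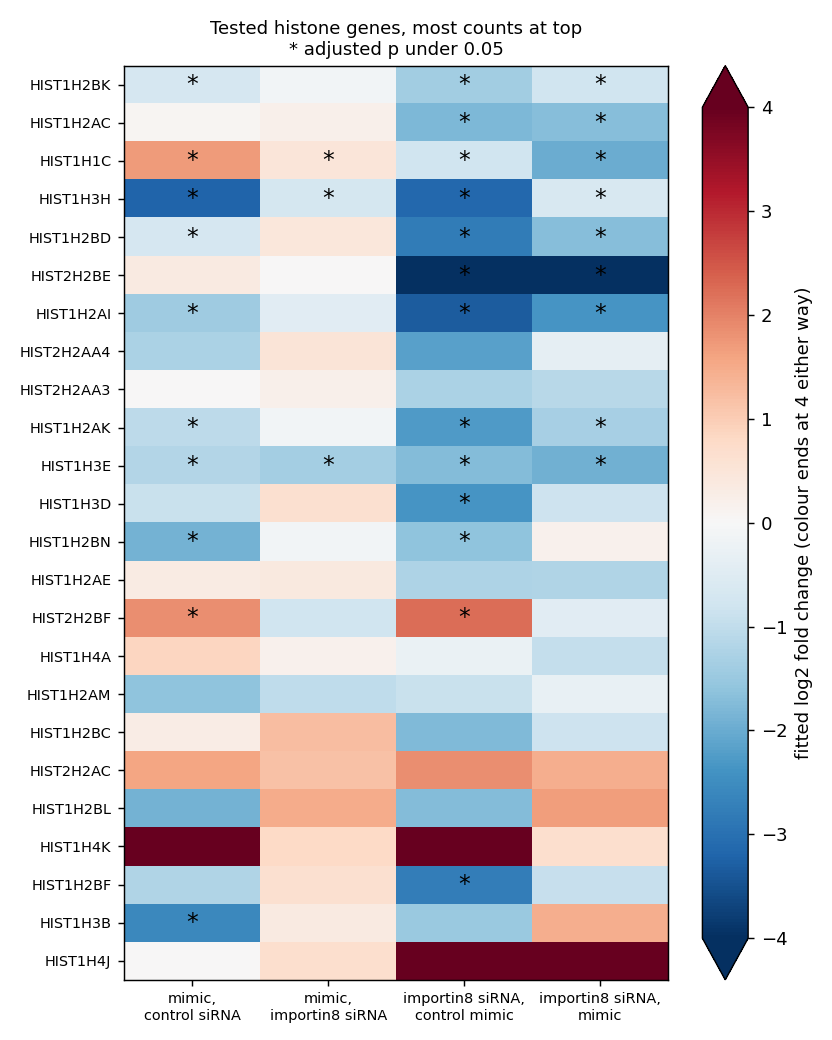
Fitted log2 fold change of the 24 tested histone genes (rows, most counts at top) in 4 comparisons (columns), with red for higher and blue for lower in the first-named treatment and a star where the adjusted p was under 0.05. Colour ends at 4 either way; the fitted values of HIST2H2BE, HIST1H4K and HIST1H4J lie past it where a group was at 0, and are no measure of size.

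HIST2H2BE, an H2B gene at chr1:149884459-149886652 on the minus strand, was listed at 0 in every importin8 siRNA library. Its expected counts were 0 and 0 in siIPO8-miR-552-3p, likewise 0 and 0 in siIPO8-NC, against 241.23 and 291.4 in miR-552-3p and 219.7 and 212.37 in NC. No other gene in the table of 26716 was at 0 in all 4 importin8 siRNA libraries with 10 or more counts in each of the 4 control siRNA libraries. The reverse pattern was found in 1 gene, LEAP2. A count of 0 allows up to 3 counts, or 0.131 to 0.144 CPM, so HIST2H2BE was at least 71.2-fold lower in siIPO8-NC than in NC and at least 86.4-fold lower in siIPO8-miR-552-3p than in miR-552-3p, with that floor set per library. Adjusted p was 1.15e-06 for siIPO8-NC over NC and 2.31e-06 for siIPO8-miR-552-3p over miR-552-3p (edgeR quasi-likelihood test). Under control siRNA it had 241.23 and 291.4 counts with the mimic, above both NC libraries, but the log2 fold change of 0.37 ± 0.17 did not pass (SE, adjusted p = 0.108). Under limma-voom it did (0.36, adjusted p = 0.0347).

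Sharing of reads was looked at for this gene. Of its 2145 annotated stretches of 50 bases, the read length, 91.9% were in no other GENCODE gene, and the largest share with another gene was 7.23%, with HIST2H2BF. HIST2H2BF had 0.315 and 1.24 CPM in siIPO8-miR-552-3p, 1.58 and 1.16 in siIPO8-NC, against 0.594 and 1.57 in miR-552-3p, and 0.379 and 0.241 in NC. These levels were not set against the shared part of the HIST2H2BE reads, and a move of reads between the 2 genes was not tested. The neighbour HIST2H2AC starts 323 bases away on the other strand, and had 0.864 and 0.659 CPM in siIPO8-miR-552-3p, 0.616 and 0.0333 in siIPO8-NC, against 0.506 and 0.0504 in miR-552-3p, and 0.139 and 0.0434 in NC. It passed no test. The sources used here do not say whether all 8 libraries were quantified with the same gene models, and the zeros and both fold bounds can be read as levels only if they were. The cause of the zeros was not tested.

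Among the other H2B genes, HIST1H2BK was the best covered, with 307.18 to 960.8 expected counts. It had 14.8 and 15.1 CPM in siIPO8-miR-552-3p, 15.7 and 16.5 in siIPO8-NC, against 26.8 and 25.4 in miR-552-3p, and 41.5 and 42.1 in NC. No group overlapped another. The gene was lower in siIPO8-NC than in NC by a log2 fold change of -1.38 ± 0.08 (SE, adjusted p = 5.45e-07), and lower in siIPO8-miR-552-3p than in miR-552-3p by -0.81 ± 0.08 (adjusted p = 3.88e-05). It was lower with the mimic under control siRNA, at -0.68 ± 0.07 on the log2 scale (adjusted p = 2.30e-05), and had -0.11 ± 0.08 under importin8 siRNA (adjusted p = 0.344). Only 25.9% of its coding 50-base stretches were its own in GENCODE, and 61.4% were also in H2BFS. The length implied by its counts and FPKM was 920 bases, and GENCODE annotates 381.

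HIST1H2BD had 2.86 and 2.62 CPM in siIPO8-miR-552-3p, 1.98 and 2.04 in siIPO8-NC, against 8.60 and 9.09 in miR-552-3p, and 14.7 and 13.3 in NC. Again no group overlapped another. Its log2 fold change was -2.81 ± 0.15 for siIPO8-NC over NC (SE, adjusted p = 4.25e-07) and -1.70 ± 0.15 for siIPO8-miR-552-3p over miR-552-3p (adjusted p = 1.85e-05). The mimic under control siRNA gave -0.67 ± 0.13 (adjusted p = 0.00138). The length implied by the counts and FPKM of HIST1H2BD was 1426 to 1857 bases, and its longest GENCODE transcript has 789. HIST1H2BN, at 8.93 to 60.67 counts, was lower in miR-552-3p than in NC (log2 fold change -1.88, adjusted p = 0.00423) and in siIPO8-NC than in NC (-1.60, adjusted p = 0.0119). Without siIPO8-NC replicate 1 the second call was lost (-1.29, adjusted p = 0.0883). HIST1H2BN spans the H2A gene HIST1H2AK, which lies on the opposite strand, and no source used here says whether counting used the strand. HIST1H2BD overlaps the antisense gene AL353759.1 on the opposite strand over 10585 bases. It also overlaps the pseudogene LARP1P1 on its own strand over 292 bases. HIST1H2BF, with 15.45 counts at most, was lower in siIPO8-NC (-2.77, adjusted p = 0.0127), a call lost without any 1 of the 4 libraries compared (adjusted p 0.0535 to 0.0856: siIPO8-NC replicate 1 or 2, NC replicate 1 or 2). HIST2H2BF was the only tested histone gene called higher in siIPO8-NC than in NC (2.22, adjusted p = 0.0268) and was also called higher in miR-552-3p than in NC (1.87, adjusted p = 0.0467). Its first call was lost without siIPO8-NC replicate 1 or 2 or NC replicate 1 or 2 (adjusted p 0.0526 to 0.137). Its second was lost without siIPO8-NC replicate 1 or 2, miR-552-3p replicate 2, or NC replicate 1 or 2 (adjusted p 0.0649 to 0.340), and also with library totals in place of TMM (adjusted p = 0.0526) and with the replicate block (adjusted p = 0.05895). It overlaps FCGR1A on the opposite strand, and the length implied by its counts and FPKM ran from 1658 to 11831 bases between libraries. On log2(FPKM + 0.5), a scale that understates the change of low genes, siIPO8-NC over NC gave 0.10 for HIST1H2BF (limma, adjusted p = 0.614) and -0.05 for HIST2H2BF (adjusted p = 0.929), with the signs turned.

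**Figure D3:**
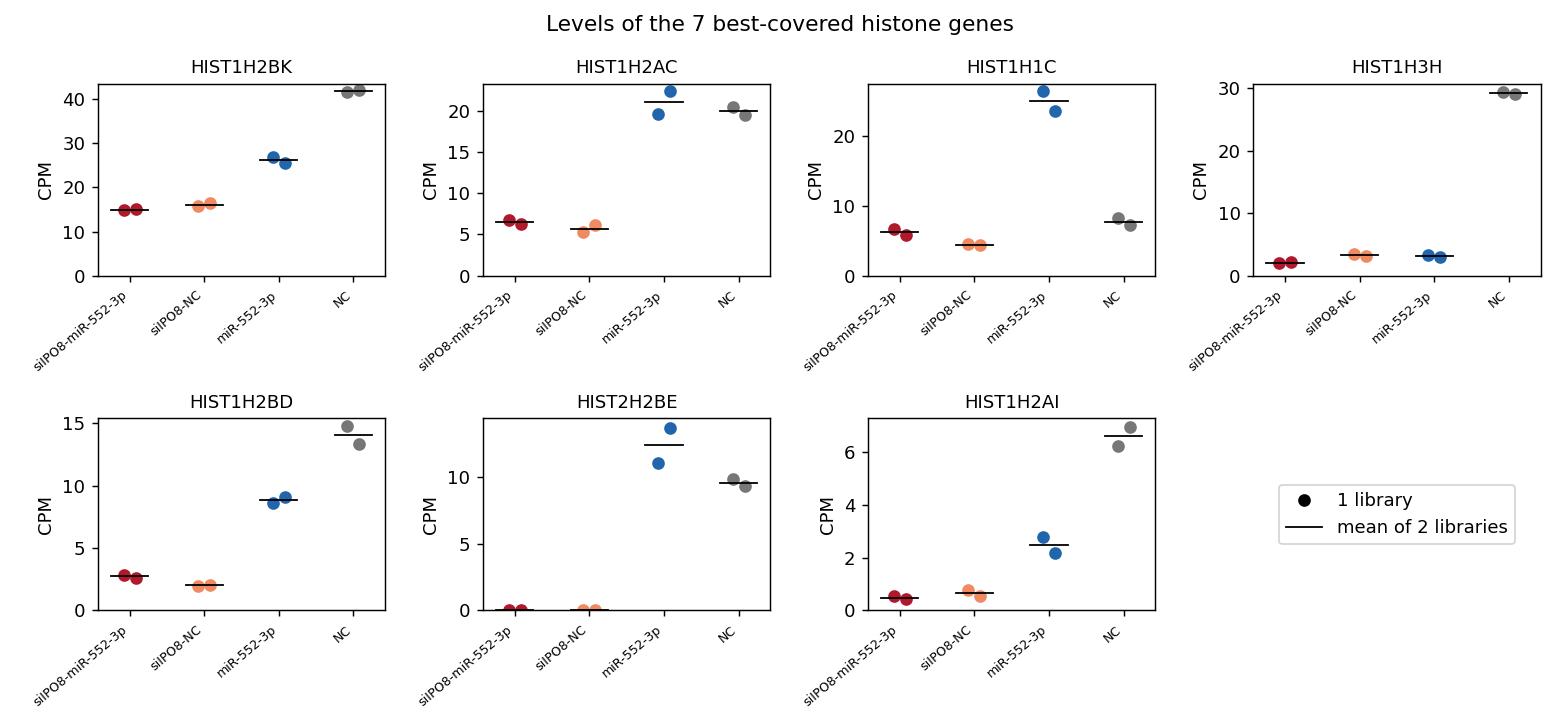
Level of the 7 histone genes with a mean of at least 50 counts, in CPM on linear axes from 0, with a point for each library and a line at the mean of the 2 libraries of a group. HIST1H1C stands at 26.4 and 23.6 CPM in miR-552-3p against 8.24 and 7.28 in NC, HIST1H3H is high in NC alone, and HIST2H2BE is at 0 in both importin8 siRNA groups.

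Of the 8 tested H2A genes, 3 were called lower in both importin8 siRNA comparisons: HIST1H2AC, HIST1H2AI and HIST1H2AK. HIST1H2AC had 6.72 and 6.26 CPM in siIPO8-miR-552-3p, 5.29 and 6.12 in siIPO8-NC, against 19.6 and 22.4 in miR-552-3p, and 20.5 and 19.5 in NC. The importin8 siRNA groups lay below both control siRNA groups, and miR-552-3p and NC overlapped. Its log2 fold change was -1.81 ± 0.12 for siIPO8-NC over NC (SE, adjusted p = 1.79e-06) and -1.69 ± 0.12 for siIPO8-miR-552-3p over miR-552-3p (adjusted p = 5.83e-06). For the mimic it was 0.07 ± 0.11 with control siRNA (adjusted p = 0.612) and 0.19 ± 0.13 with importin8 siRNA (adjusted p = 0.313). The length implied by the counts and FPKM of HIST1H2AC was 2803 to 5096 bases, and its longest GENCODE transcript has 1668. HIST1H2AI had 0.541 and 0.433 CPM in siIPO8-miR-552-3p, 0.762 and 0.558 in siIPO8-NC, against 2.79 and 2.17 in miR-552-3p, and 6.24 and 6.95 in NC, with no overlap. It was lower in siIPO8-NC than in NC, at -3.33 ± 0.29 (log2, SE, adjusted p = 9.61e-06), in siIPO8-miR-552-3p than in miR-552-3p, at -2.36 ± 0.31 (adjusted p = 0.000264), and in miR-552-3p than in NC, at -1.41 ± 0.25 (adjusted p = 0.000757). Only 37.7% of the 50-base stretches of HIST1H2AI were its own. The length implied by its counts and FPKM was 648 to 3165 bases, and GENCODE annotates 503. HIST1H2AK gave -2.26 for siIPO8-NC over NC (adjusted p = 0.000328), -1.34 for siIPO8-miR-552-3p over miR-552-3p (adjusted p = 0.0131) and -1.04 for miR-552-3p over NC (adjusted p = 0.0151). Its implied length was 5966 to 8049 bases, against 393 annotated. Its call with the mimic in both groups was lost without siIPO8-miR-552-3p replicate 1 or 2 or miR-552-3p replicate 1 (adjusted p 0.0584 to 0.120). Its mimic call was lost without miR-552-3p replicate 2 (adjusted p = 0.119) or NC replicate 2 (adjusted p = 0.0801).

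All 4 tested H3 genes, which encode H3.1, had called differences. HIST1H3H, at chr6:27810064-27811300 on the plus strand, had 1.99 and 2.12 CPM in siIPO8-miR-552-3p, 3.43 and 3.24 in siIPO8-NC, against 3.37 and 2.97 in miR-552-3p, and 29.4 and 29.1 in NC. NC stood far above the rest, and siIPO8-NC and miR-552-3p overlapped. The log2 fold change was -3.14 ± 0.12 for siIPO8-NC over NC (SE, adjusted p = 7.48e-08) and -3.20 ± 0.13 for miR-552-3p over NC (adjusted p = 1.72e-08). On top of the other treatment the differences were smaller, at -0.63 ± 0.15 for siIPO8-miR-552-3p over miR-552-3p (adjusted p = 0.00916) and -0.69 ± 0.15 for siIPO8-miR-552-3p over siIPO8-NC (adjusted p = 0.00587). The call over miR-552-3p was lost without siIPO8-miR-552-3p replicate 1 (adjusted p = 0.0683) or miR-552-3p replicate 1 (adjusted p = 0.0970), and the call over siIPO8-NC without siIPO8-miR-552-3p replicate 1 (adjusted p = 0.0510). None of its annotated 50-base stretches was in another gene. The length implied by its counts and FPKM was 1651 to 2507 bases, and its longest GENCODE transcript has 1237.

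HIST1H3E had 0.319 and 0.358 CPM in siIPO8-miR-552-3p, 0.957 and 0.908 in siIPO8-NC, against 1.81 and 0.958 in miR-552-3p, and 2.97 and 3.15 in NC. Calls of lower level were made in all 4 comparisons, at -1.91 for siIPO8-miR-552-3p over miR-552-3p (adjusted p = 0.00537), -1.73 for siIPO8-NC over NC (adjusted p = 0.00272), -1.35 for siIPO8-miR-552-3p over siIPO8-NC (adjusted p = 0.0356) and -1.16 for miR-552-3p over NC (adjusted p = 0.0150). The importin8 siRNA calls held without any 1 library. The mimic call under importin8 siRNA was lost without any 1 of 6 libraries, all but the 2 of miR-552-3p (adjusted p 0.0507 to 0.157), and that under control siRNA without miR-552-3p replicate 2 (-0.78, adjusted p = 0.108) or NC replicate 2 (adjusted p = 0.0638). HIST1H3D was lower in siIPO8-NC than in NC (-2.37 ± 0.50, adjusted p = 0.00292), but every one of its annotated 50-base stretches is also in the overlapping gene AL031777.3. HIST1H3B, with 13.15 counts at most, was lower in miR-552-3p than in NC (-2.56, adjusted p = 0.0108), and the call was lost without miR-552-3p replicate 1 or 2 or NC replicate 1 or 2 (adjusted p 0.0546 to 0.0709).

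HIST1H1C encodes the linker histone H1.2, which binds where DNA enters and leaves the nucleosome, and was the 1 H1 gene with enough counts to test. It had 6.72 and 5.80 CPM in siIPO8-miR-552-3p, 4.48 and 4.41 in siIPO8-NC, against 26.4 and 23.6 in miR-552-3p, and 8.24 and 7.28 in NC. The miR-552-3p group was above all others, and no group overlapped another. Its level rose with the mimic under control siRNA, by a log2 fold change of 1.69 ± 0.12 (SE, adjusted p = 1.28e-06). Under importin8 siRNA the log2 fold change was 0.49 ± 0.14 (adjusted p = 0.0225). That second call was lost without siIPO8-miR-552-3p replicate 1 (0.39, adjusted p = 0.142), siIPO8-NC replicate 1 (adjusted p = 0.0813) or siIPO8-NC replicate 2 (adjusted p = 0.103). The gene was lower in siIPO8-miR-552-3p than in miR-552-3p, at -1.999 ± 0.13 (adjusted p = 3.29e-06) and in siIPO8-NC than in NC, at -0.80 ± 0.14 (adjusted p = 0.000832). HIST1H1C had no annotated 50-base stretch in common with another gene. The other H1 genes, HIST1H1B, HIST1H1D, HIST1H1E and HIST1H1T, reached 13.14 counts at most.

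The mimic's effect differed between the siRNA backgrounds in 5 of the 24 tested genes, 4 with a higher value under importin8 siRNA and 1 with a lower one, beside 14.2% of all genes called higher and 17.1% lower. HIST1H3H had a difference of 2.51 ± 0.20 on the log2 scale (SE, adjusted p = 1.24e-05), HIST1H2BD of 1.11 ± 0.21 (adjusted p = 0.00281), HIST1H2BK of 0.57 ± 0.11 (adjusted p = 0.00305) and HIST1H1C of -1.197 ± 0.19 (adjusted p = 9.03e-04). In siIPO8-NC the levels of HIST1H2BD and HIST1H2BK were below those in miR-552-3p, and that of HIST1H3H overlapped it. HIST1H3B had 2.93 ± 1.00 (adjusted p = 0.0495), which was lost without any 1 of the 8 libraries (adjusted p 0.110 to 0.147), with either other filter on low counts and with the replicate block (adjusted p 0.0717 to 0.0916). HIST1H3B passed the low-count filter only through NC. HIST1H2AC had 0.12 ± 0.17 (adjusted p = 0.653). No value is given for HIST2H2BE, which is at 0 in every importin8 siRNA library.

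Other tools ended some calls. DESeq2 did not call HIST1H2AK, HIST1H3B, HIST1H3E or HIST2H2BF with the mimic under control siRNA (adjusted p 0.0777 to 0.104), HIST1H2BF in siIPO8-NC over NC (adjusted p = 0.0983), HIST1H1C, HIST1H3E or HIST1H3H with the mimic under importin8 siRNA (adjusted p 0.0682 to 0.156), or HIST1H2AK or HIST1H3H in siIPO8-miR-552-3p over miR-552-3p (adjusted p 0.0653 to 0.1001). On log2(FPKM + 0.5), limma did not call HIST1H2AI in siIPO8-miR-552-3p over miR-552-3p (-0.55, adjusted p = 0.377) or in miR-552-3p over NC (-1.07, adjusted p = 0.0616). On that scale it also did not call HIST1H2BN in either of its comparisons, HIST2H2BF or HIST1H3E with the mimic under control siRNA, HIST1H3E or HIST1H3H with it under importin8 siRNA, or HIST1H2AK or HIST1H3H in siIPO8-miR-552-3p over miR-552-3p (adjusted p 0.0726 to 0.410). The count test by limma-voom did not call HIST1H1C or HIST1H3E with the mimic under importin8 siRNA, or HIST2H2BF under control siRNA (adjusted p 0.0642 to 0.0973). With only the groups compared in the fit, HIST1H3E with the mimic under importin8 siRNA (adjusted p = 0.0552) and HIST1H3H in siIPO8-miR-552-3p over miR-552-3p (adjusted p = 0.0672) were not called. The calls of HIST1H2BK, HIST1H2AC, HIST1H2BD and HIST2H2BE, those of HIST1H1C other than with the mimic under importin8 siRNA, and those of HIST1H3H against NC held in every alternative run.

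Near-identical copies split their reads. HIST2H2AA3 and HIST2H2AA4 share 97.1 to 100% of their 50-base stretches, and which of them had more expected counts changed between the replicates of siIPO8-miR-552-3p, siIPO8-NC and NC. HIST2H2AA3 had 103.26 counts in NC replicate 1 and 28.23 in replicate 2, while HIST2H2AA4 had 70.64 and 138.77. Taken singly neither gene passed a test in any comparison. With the pair summed, an alternative added after seeing the data, the level was 3.38 and 2.32 CPM in siIPO8-miR-552-3p, 2.77 and 1.69 in siIPO8-NC, against 5.88 and 3.87 in miR-552-3p, and 7.83 and 7.32 in NC. The sum was lower in siIPO8-NC than in NC, with a log2 fold change of -1.75 ± 0.29 (SE, adjusted p = 0.000808). It had -0.77 ± 0.29 for siIPO8-miR-552-3p over miR-552-3p (adjusted p = 0.0686) and -0.64 ± 0.27 for miR-552-3p over NC (adjusted p = 0.0716).

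HIST1H4J and HIST1H4K were the only H4 pair of this kind with 10 counts in a library. Their counts in a library lay wholly in one or the other gene. Summed, they had 1.276 and 1.196 CPM in siIPO8-miR-552-3p, 0.688 and 0.795 in siIPO8-NC, against 0.256 and 0.482 in miR-552-3p, and 0 and 0 in NC. The groups did not overlap. Singly neither was called. The sum was at least 5.57-fold higher in siIPO8-NC than in NC (adjusted p = 0.000533) and at least 2.77-fold higher in miR-552-3p than in NC (adjusted p = 0.00159), with a floor of 3 counts per library in NC. The zeros in NC and both bounds can be read as levels only if all 8 libraries were quantified with the same gene models. The sum was also higher in siIPO8-miR-552-3p than in miR-552-3p (1.72 ± 0.52, adjusted p = 0.0315). HIST1H4A, the third tested H4 gene, had 5.1 to 22.47 counts and passed no test. Summing HIST1H2AI with its near copy HIST1H2AJ gave -2.95 for siIPO8-NC over NC, -1.66 for siIPO8-miR-552-3p over miR-552-3p and -1.40 for miR-552-3p over NC, each still called.

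**Figure D4:**
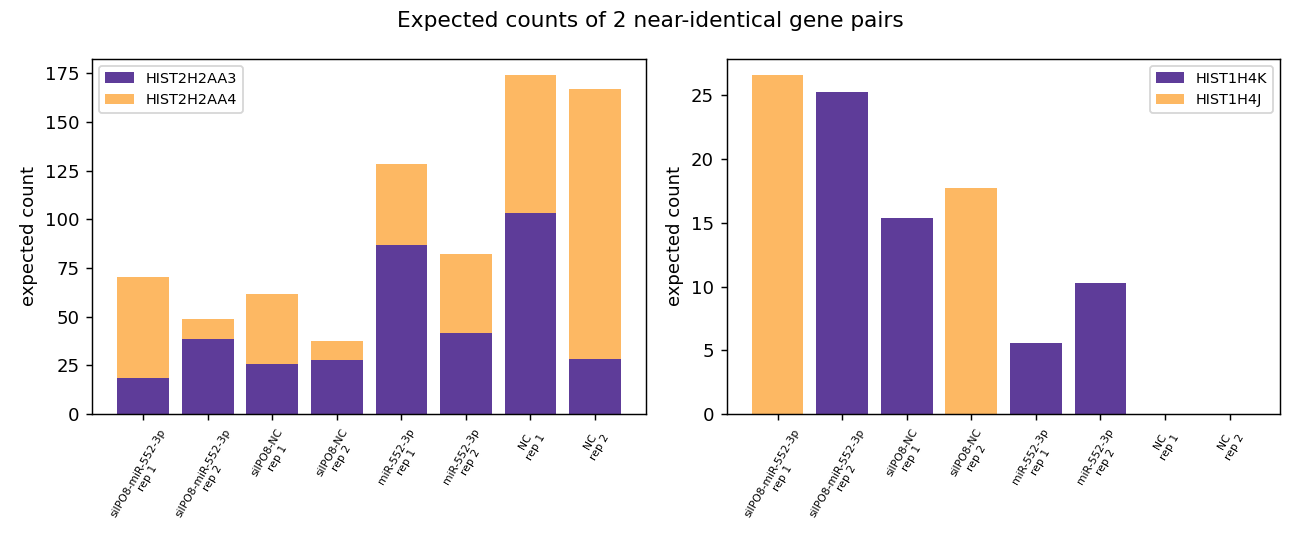
Expected counts of the pairs HIST2H2AA3 and HIST2H2AA4 (left) and HIST1H4K and HIST1H4J (right) in each library, stacked. The larger member changes between replicates in the NC group and both importin8 siRNA groups for the H2A pair, and in both importin8 siRNA groups for the H4 pair, which is at 0 in both NC libraries.

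The remaining genes with 10 counts in a library had few counts. HIST1H2AE, HIST1H2AM, HIST1H2BC, HIST2H2AC and HIST1H2BL were tested and passed in no comparison, at 0 to 42.97 counts. HIST1H2AE had 0.710 and 0.578 CPM in siIPO8-miR-552-3p, 0.510 and 0.479 in siIPO8-NC, against 1.97 and 1.01 in miR-552-3p, and 0.840 and 1.47 in NC. HIST1H2BJ, HIST1H2BO, HIST1H1T, HIST1H2AJ, HIST1H2AG and HIST1H2AD reached 10.81 to 13.46 counts in 1 library each and were not tested. HIST1H2AM shares 86.3% of its 50-base stretches with the overlapping HIST1H3J, and HIST1H2AD shares 98.0% with AL031777.3. The lowest adjusted p among the 5 tested genes was 0.05285, for HIST1H2BC in siIPO8-NC over NC, with a log2 fold change of -1.76 (edgeR quasi-likelihood test).

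In GENCODE, 9 pairs of the 54 genes start within 1000 bases of each other on opposite strands, most of them an H2A beside an H2B gene. HIST1H2AC and its neighbour HIST1H2BC start 219 bases apart. HIST1H2BC had 0.442 and 0.428 CPM in siIPO8-miR-552-3p, 0.0911 and 0.279 in siIPO8-NC, against 0.569 and 1.00 in miR-552-3p, and 0.531 and 0.712 in NC, and passed no test. HIST1H2BK faces HIST1H2AH, 331 bases away, which had 3.74 counts at most. HIST1H2AI faces HIST1H2BL, 268 bases away, which had 17.47 counts at most. These pairs and that of HIST2H2BE and HIST2H2AC were picked from the 9 because 1 gene of each had a mean of at least 50 counts. The other gene of each had 21.25 counts at most.

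Genes that serve histone mRNA and histone protein were read from lists. Over all genes tested, the shares called higher and lower were 25.4% and 21.6% in siIPO8-NC over NC, 17.3% and 16.2% in siIPO8-miR-552-3p over miR-552-3p, 28.9% and 29.5% for the mimic with control siRNA, and 15% and 16.7% for it with importin8 siRNA. The median over all genes lay between -0.01 and 0.00 in each, and the counts of each list stand against these shares. Of 23 genes for histone transcription and 3′ end processing, 13 were higher and 2 lower in siIPO8-NC than in NC, with a median log2 fold change of 0.21, and 7 were higher and 3 lower in siIPO8-miR-552-3p than in miR-552-3p (median 0.12). The mimic gave 9 higher and 6 lower with control siRNA (median -0.04) and 0 higher and 9 lower with importin8 siRNA (median -0.07). As shares of the list, 56.5% were higher in siIPO8-NC than in NC, above the background, while the 26.1% lower with the mimic under control siRNA were near it. SLBP, which binds the stem-loop, had 45.5 and 45.8 CPM in siIPO8-miR-552-3p, 46.9 and 48.4 in siIPO8-NC, against 47.9 and 45.6 in miR-552-3p, and 38.7 and 30.2 in NC. It was higher in siIPO8-NC than in NC (0.47 ± 0.10, adjusted p = 0.00385) and in miR-552-3p than in NC (0.44 ± 0.10, adjusted p = 0.00408). LSM11, a subunit of the U7 snRNP that cuts histone pre-mRNA, was lower with the mimic under both siRNAs, with a log2 fold change of -1.01 ± 0.14 with control siRNA (adjusted p = 1.65e-04) and -0.97 ± 0.13 with importin8 siRNA (adjusted p = 0.000483). UPF1, a helicase needed for histone mRNA decay, was lower in miR-552-3p than in NC, at -1.03 ± 0.08 (adjusted p = 1.38e-06). NPAT, the coactivator of histone gene transcription, passed in no comparison, with log2 fold changes of -0.24 to -0.06.

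S phase genes were called mostly higher under importin8 siRNA. Of 22, 14 were higher and 1 lower in siIPO8-NC than in NC (median 0.70), and 16 were higher and 0 lower in siIPO8-miR-552-3p than in miR-552-3p (median 0.80). With the mimic, 18 were lower and 0 higher under each siRNA (medians -0.66 with control siRNA and -0.52 with importin8 siRNA). That is 63.6% higher in siIPO8-NC over NC and 72.7% in siIPO8-miR-552-3p over miR-552-3p, and 81.8% lower with the mimic under each siRNA. CCNA2, the S phase cyclin A, had 46.4 and 47.2 CPM in siIPO8-miR-552-3p, 65.9 and 64.9 in siIPO8-NC, against 14.4 and 10.5 in miR-552-3p, and 18.9 and 14.1 in NC. Its log2 fold change was 1.99 ± 0.15 for siIPO8-NC over NC (SE, adjusted p = 1.67e-05). MCM2, a subunit of the replicative helicase, gave 0.83 ± 0.08 there (adjusted p = 2.49e-05). E2F1, an activator of S phase genes, was lower in miR-552-3p than in NC, at -2.38 ± 0.09 (adjusted p = 1.57e-08).

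Replication-independent histone genes have mRNAs that are polyadenylated as a rule. Of 11 tested, 8 were higher and 1 lower in siIPO8-NC than in NC (median 0.44), and 4 higher and 2 lower in siIPO8-miR-552-3p than in miR-552-3p (median 0.12). The mimic gave 5 higher and 5 lower with control siRNA (median -0.12) and 1 higher and 5 lower with importin8 siRNA (median -0.13). The 72.7% higher in siIPO8-NC stood above the background, in a list of few genes. H1F0, the linker histone H1.0 of resting cells, had 909 and 937 CPM in siIPO8-miR-552-3p, 903 and 830 in siIPO8-NC, against 841 and 855 in miR-552-3p, and 571 and 466 in NC. It was higher in siIPO8-NC than in NC (0.74 ± 0.10, adjusted p = 1.67e-04) and in miR-552-3p than in NC (0.71 ± 0.10, adjusted p = 1.41e-04). CENPA, the centromeric H3 variant, rose with importin8 siRNA with either mimic (1.18 ± 0.13, adjusted p = 4.82e-05 with control mimic; 1.10 ± 0.14, adjusted p = 1.96e-04 with the mimic). H2AFX, the H2A variant that is phosphorylated at DNA breaks, was lower with the mimic, at -0.67 ± 0.09 under control siRNA (adjusted p = 1.10e-04) and at -0.89 ± 0.09 under importin8 siRNA (adjusted p = 7.38e-05). Of 18 histone chaperones, 11 were higher and 3 lower in siIPO8-NC than in NC (median 0.36), and 7 higher and 1 lower in siIPO8-miR-552-3p than in miR-552-3p (median 0.13). The mimic gave 5 higher and 8 lower with control siRNA (median -0.07) and 3 higher and 10 lower with importin8 siRNA (median -0.30), and the shares higher in siIPO8-NC over NC and lower with the mimic under importin8 siRNA were 61.1% and 55.6%. CABIN1, a subunit of the HIRA complex, was lower in miR-552-3p than in NC, at -2.59 ± 0.08 (adjusted p = 4.97e-09) and in siIPO8-NC than in NC, at -2.11 ± 0.08 (adjusted p = 6.26e-08), and HJURP, the chaperone of CENPA, was higher by 1.79 ± 0.10 in siIPO8-NC (adjusted p = 4.96e-07).

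**Figure D5:**
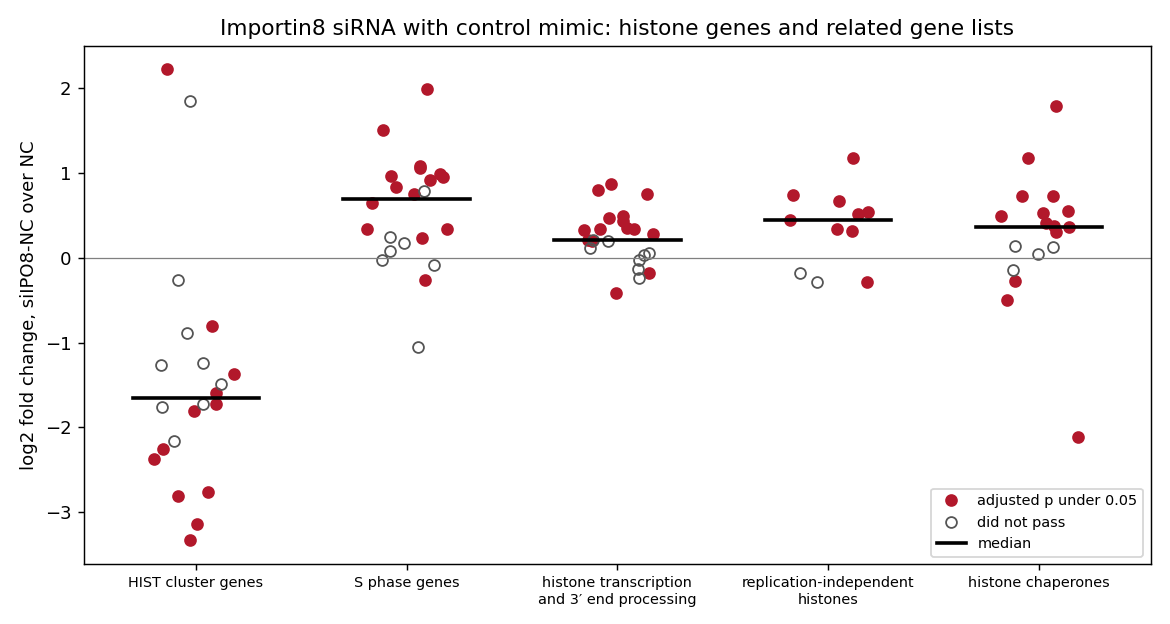
Log2 fold change of siIPO8-NC over NC for tested genes of 5 groups, with filled points for an adjusted p under 0.05, open points for the rest and a line at the median of each group. HIST cluster genes have a median of -1.66 over 24 genes (HIST2H2BE, HIST1H4J and HIST1H4K, each with a group at 0, are counted but not drawn), and S phase genes a median of 0.70.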

How the data were processed

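Poly(A) RNA was sequenced as single-end reads of 50 bases, per the labels' protocols. The deposited table gives an expected count and an FPKM for each gene and library, per the file headers; the authors' FPKM implies one length per gene and library. The submitters' processing notes name HISAT2 2.0.4, Bowtie2 2.2.5, RSEM 1.2.8 and GRCh38.p12 without their roles. Expected counts divide reads that match several genes. A second table, of the control siRNA libraries, repeats values of the first and was not used.

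The members and gene lists were chosen with earlier results of these data known. Members with at least 10 counts in 1 library are described, those with a mean of at least 50 counts by every library, and other members by name where called in a comparison or to account for them. Expected counts were rounded to whole numbers and fitted as 4 group means over all 8 libraries with edgeR 4.0.16 (filterByExpr, TMM factors 0.961 to 1.06, robust quasi-likelihood test, Benjamini-Hochberg over 17715 genes), a step tested on simulated data. SE is the log2 fold change over the root of F. CPM uses the TMM-scaled library size, and levels per length are FPKM. Alternatives were RLE factors, library totals, DESeq2 1.42.0, limma-voom and limma-trend on log2(FPKM + 0.5) in limma 3.58.1, 2 other filters, only the groups compared, a replicate block, leaving out each library, and, added later, near-identical pairs summed, and the summed level without HIST2H2BE or on library totals.

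The design text gives 2 experiments per group without saying whether cultures were separate; if they were not, the p-values reflect technical spread. Within every group the 2 libraries differed beyond counting noise (chi-square over its degrees of freedom 4.53 to 10.6) and were kept as 2 samples. Floors of 3 counts cover counting error only. Genes were matched to GENCODE v29 (GRCh38) by symbol, which found all 54.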

Additional observations from a re-analysis of the deposited data

Results flagged for a closer look

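In 5 of the 24 tested histone genes the difference between the mimic's effect with importin8 siRNA and that with control siRNA passed the test of the difference itself (edgeR's quasi-likelihood test, adjusted over all genes). It was 2.51 on the log2 scale for HIST1H3H, 1.11 for HIST1H2BD, 0.57 for HIST1H2BK and -1.197 for HIST1H1C. HIST1H3B gave 2.93 with counts of 13.15 at most, and passed the low-count filter only through NC. Of the 24 genes, 4 were called higher and 1 lower, beside 14.2% of all genes called higher and 17.1% lower. The higher share was near that background and the lower share was below it. Groups of 2 libraries were too small to look for single libraries that stand apart.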

How the results depend on the processing

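Of 40 called values of single genes, 24 held in every alternative run and 16 were lost in at least one. Values that missed the threshold under both settings were given no direction. Under limma-trend on log2(FPKM + 0.5), siIPO8-NC over NC gave 0.10 for HIST1H2BF and -0.048 for HIST2H2BF, both opposite in sign to the count fit. HIST1H2BF had 1.98 counts and 0.22 FPKM in siIPO8-NC replicate 1, against 14.39 and 0.06 in NC replicate 1. HIST2H2BF had 35.17 and 0.16 there, against 8.43 and 0.23. The length behind the FPKM thus differed between libraries, and why it did was not tested. With the mimic under control siRNA, genes called higher numbered 1 under library totals, DESeq2, FPKM and the replicate block, and genes lower 5 under DESeq2 and FPKM. With the mimic under importin8 siRNA, 0 were higher under DESeq2 and limma-voom, and 0 were lower under DESeq2 and FPKM and 1 under limma-voom and only the groups compared. With importin8 siRNA and control mimic, 0 were higher under FPKM and 2 with near-identical pairs summed; with the mimic in both groups 1 was higher under FPKM and 1 with pairs summed. For the difference of the mimic effects 2 were lower with pairs summed. Ratios of the summed level without HIST2H2BE were 0.709, 0.298 and 0.438. With CPM on library totals, the sum in miR-552-3p was 0.712 of that in NC, siIPO8-miR-552-3p had 0.992 of siIPO8-NC, and siIPO8-NC had 0.276 of NC.

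Leaving out each library in turn gave 1 to 3 higher and 5 to 9 lower for the mimic under control siRNA, 0 to 1 higher and 0 to 2 lower under importin8 siRNA, 0 to 1 higher and 10 to 13 lower for importin8 siRNA with control mimic, 0 to 0 higher and 7 to 10 lower with the mimic, and 3 to 4 higher and 1 to 2 lower for the difference. A lone library was assumed to vary like the other groups. Replicate numbers did not pair the samples (correlations of deviations -0.003 to 0.087). With the replicate block, 13 genes were lower with importin8 siRNA and control mimic, and 9 with the mimic. Depth limits the 30 genes that were not tested.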
